A study of Mus musculus with 12 samples.

Results

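The POU class III factors of the mouse are Pou3f1, Pou3f2, Pou3f3 and Pou3f4, and their 4 genes were taken by symbol from the 40690 genes of the deposited gene table and as 4 of the 84548 transcripts of the deposited transcript table. Polyadenylated RNA was sequenced from brains of 12 mouse embryos at embryonic day 14.5, all labelled C57BL/6J, with 3 embryos in each of 4 groups. The LC1 knockout group (LC1_KO, embryos 7, 22 and 71) and its wild types (LC1_WT, embryos 6, 26 and 73) were all female. The knockout removes LC1, a non-coding element upstream of Pou3f2, and the labels do not say on how many alleles or how many founder lines were used. The RKI embryos were homozygous for a human sequence variant knocked into this element (RKI_homozygous, embryos A1, A10 and A18) or wild type for it (RKI_WT, embryos A2, A9 and A16), with 1 female (A10 and A9) and 2 males in each RKI group. Neither allele lies in counted sequence, and no check of the genotypes was possible from the counts. Total counts per library lay between 18192984 and 26566769.

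POU factors bind DNA through a bipartite domain, made of a POU-specific part and a POU homeodomain joined by a linker. The class III members are expressed in overlapping territories of the developing central nervous system, often together with SOX proteins, with which they can bind side by side. Pou3f1 (Oct6, SCIP) is known for its role in Schwann cell myelination and is also made in cortical neurons. Pou3f2 (Brn2) and Pou3f3 (Brn1) act redundantly in the production and migration of upper-layer neurons of the neocortex, and Pou3f2 is also needed for neuroendocrine neurons of the hypothalamus. Pou3f4 (Brn4) is X-linked, is expressed in the embryonic striatum and neural tube, and is required for the inner ear.

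Each of the 4 genes has 1 exon and 1 annotated transcript in GENCODE M21 on the build GRCm38. Pou3f1 (ENSMUSG00000090125) spans chr4:124656807-124660655 on the plus strand and encodes 449 residues. Pou3f2 (ENSMUSG00000095139) spans chr4:22482780-22488366 on the minus strand and encodes 445 residues. Pou3f3 (ENSMUSG00000045515) spans chr1:42695768-42703176 on the plus strand and encodes 497 residues. Pou3f4 (ENSMUSG00000056854) spans chrX:110814280-110817207 on the plus strand and encodes 361 residues. The transcripts measure 3849, 5587, 7409 and 2928 bases for Pou3f1, Pou3f2, Pou3f3 and Pou3f4, and the lengths implied by the deposited RPKM values were 0.127% above these for each gene.

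Because these genes are close paralogs, the coding sequence was examined for stretches that reads could not tell apart. A core of 156 residues was 90.4% (Pou3f1 and Pou3f4) to 98.7% (Pou3f2 and Pou3f3) identical between pairs, whereas all aligned residues of the whole proteins were 59.9% to 71.3% identical. The longest run of residues that is the same in all 4 proteins holds 65 residues, residues 272 to 336 of Pou3f2, and is given as coding DNA because it is where the members are hardest to separate. It lies at chr4:124658463-124658657 (plus strand) in Pou3f1, at chr4:22487124-22487318 (minus strand) in Pou3f2, at chr1:42698100-42698294 (plus strand) in Pou3f3 and at chrX:110815044-110815238 (plus strand) in Pou3f4. Each sequence is the coding strand, 5′ to 3′, from the GENCODE M21 transcript, and capitals mark the 47 of 195 bases that are not the same in all 4 genes.
Pou3f1: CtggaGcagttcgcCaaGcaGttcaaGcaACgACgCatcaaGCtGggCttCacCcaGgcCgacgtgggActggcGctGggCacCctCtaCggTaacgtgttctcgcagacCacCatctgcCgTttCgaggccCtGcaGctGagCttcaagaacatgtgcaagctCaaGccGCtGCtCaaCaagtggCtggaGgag
Pou3f2: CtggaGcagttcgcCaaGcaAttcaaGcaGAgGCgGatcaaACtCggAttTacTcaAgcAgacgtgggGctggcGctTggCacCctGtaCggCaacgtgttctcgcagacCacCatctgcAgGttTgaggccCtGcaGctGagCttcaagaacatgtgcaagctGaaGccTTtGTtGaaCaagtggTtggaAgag
Pou3f3: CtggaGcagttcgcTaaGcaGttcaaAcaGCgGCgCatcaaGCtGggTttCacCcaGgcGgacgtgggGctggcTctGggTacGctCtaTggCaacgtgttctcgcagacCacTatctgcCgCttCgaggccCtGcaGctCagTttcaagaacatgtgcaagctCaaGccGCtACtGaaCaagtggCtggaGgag
Pou3f4: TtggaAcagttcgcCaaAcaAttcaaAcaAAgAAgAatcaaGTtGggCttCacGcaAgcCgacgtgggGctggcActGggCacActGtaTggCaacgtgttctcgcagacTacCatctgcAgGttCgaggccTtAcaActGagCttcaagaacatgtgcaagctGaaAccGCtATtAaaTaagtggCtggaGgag
Although the encoded residues are identical, pairs of these stretches differed at 18 bases (Pou3f1 and Pou3f3) to 33 bases (Pou3f3 and Pou3f4) of 195. Over the whole transcripts the longest exact run shared by a pair was 38 bases, between Pou3f1 and Pou3f2, and 0 of the 50-base windows of any member occurred in another member. Windows of 50 bases shared with transcripts of other genes made up 7.42% of those of Pou3f1, 0.56% of Pou3f2, 0.245% of Pou3f3 and 0.799% of Pou3f4. For Pou3f1 the other gene was the antisense RNA Gm2164, which overlaps its 5′ end at chr4:124656840-124657169. The sources used here give neither the length nor the strand handling of the reads, and the part of Gm2164 in the Pou3f1 count was not tested.

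Pou3f3 was the most abundant member in every library, and Pou3f2 came next in the gene table. On the per-length scale of the deposited gene RPKM (reads scaled by transcript length and library total), over 12 libraries, Pou3f3 averaged 38.4 ± 2.93 RPKM, Pou3f2 17.1 ± 0.942 RPKM, Pou3f4 12.8 ± 1.31 RPKM and Pou3f1 11.9 ± 0.893 RPKM (SD, n = 12). Pou3f3 (33.6 to 42.2 RPKM) overlapped with no other member, and the lowest library of Pou3f2 (15.24 RPKM) lay just above the highest of Pou3f4 (15.21 RPKM). The ranges of Pou3f4 (10.8 to 15.2 RPKM) and Pou3f1 (10.2 to 13.4 RPKM) overlapped. Within libraries Pou3f4 was the higher of the pair in 10 of 12. The ratio of Pou3f1 to Pou3f4 was 0.939 ± 0.0846 by gene RPKM (SD, n = 12), and the difference between these neighbours was not tested. In level (CPM) Pou3f3 stood above 96.5% of the 16002 genes tested, Pou3f2 above 82.8%, Pou3f1 above 66.7% and Pou3f4 above 61.5%.

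The order of the members depended on the table it was read from. In the transcript table, whose values are estimated counts, Pou3f3 averaged 13.8 ± 1.04 RPKM, Pou3f4 9.35 ± 1.04 RPKM, Pou3f2 6.56 ± 0.629 RPKM and Pou3f1 5.13 ± 0.307 RPKM (SD, n = 12), in this order in 12 of 12 libraries. Pou3f2 was thus 1.35 ± 0.147 times as abundant as Pou3f4 by gene RPKM and 0.709 ± 0.095 times as abundant by transcript RPKM (SD, n = 12). The ratio of Pou3f2 to Pou3f3 was 0.448 ± 0.023 by gene RPKM and 0.476 ± 0.0264 by transcript RPKM, and the ratio of Pou3f1 to Pou3f3 was 0.312 ± 0.0311 and 0.374 ± 0.0378 (SD, n = 12).

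The transcript estimates of 3 members were far below their gene counts, and those of Pou3f4 were not. Summed over the 12 libraries, the transcript estimate was 0.495 of the gene count for Pou3f3, 0.527 for Pou3f2, 0.593 for Pou3f1 and 1.002 for Pou3f4. Within a gene this ratio was steady, from 0.476 to 0.51 over the libraries for Pou3f3 and from 0.959 to 1.08 for Pou3f4. Among 3259 genes with 1 transcript and a mean count of at least 100 the median ratio was 0.945, and 4.08% of them lay below Pou3f3, 9.17% below Pou3f2, 14.5% below Pou3f1 and 55.0% below Pou3f4. The transcripts held 63.9% G and C bases for Pou3f1, 44.4% for Pou3f2, 51.1% for Pou3f3 and 51.8% for Pou3f4. Their coding parts held 72.9% for Pou3f1, 65.8% for Pou3f2, 71.1% for Pou3f3 and 57.1% for Pou3f4, so Pou3f4 was lowest by this measure and between Pou3f3 and Pou3f1 by the other. Transcript length ran in the reverse order of the ratios. It was 7409 bases for Pou3f3, 5587 for Pou3f2, 3849 for Pou3f1 and 2928 for Pou3f4. What set the ratios was not tested.

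**Figure D1:**
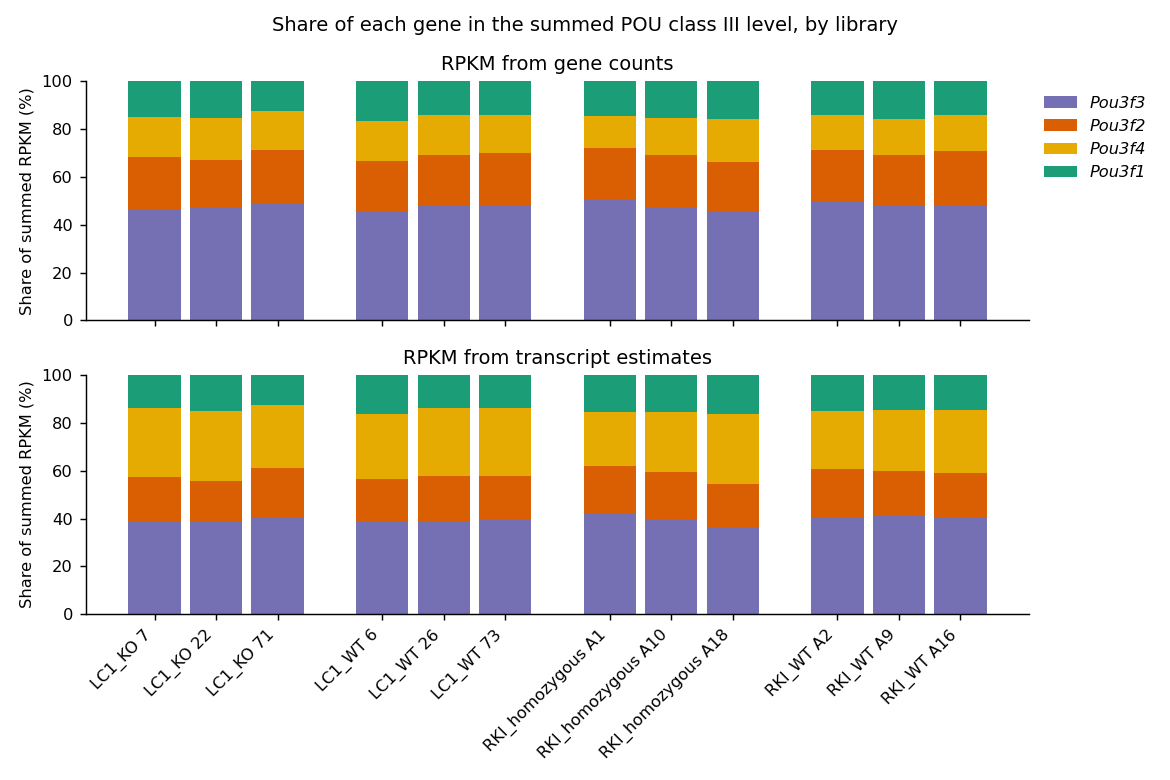
Share (%) of each member in the summed RPKM of the 4 genes, 1 bar per library, from gene counts (top) and from transcript estimates (bottom). Pou3f3 holds 45.3% to 50.3% in the upper panel, and Pou3f4 holds 22.7% to 29.5% in the lower panel, against 13.4% to 17.9% in the upper one.

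Within a table the composition of the family was similar in the 4 groups. By gene RPKM, Pou3f3 made up 47.6% ± 1.61 of the family sum in LC1_KO, 47.3% ± 1.43 in LC1_WT, 47.5% ± 2.54 in RKI_homozygous and 48.8% ± 1.13 in RKI_WT (SD, n = 3 each). The summed level of the 4 genes was 84.4 ± 2.94 RPKM in LC1_KO, against 79.2 ± 5.67 RPKM in LC1_WT, and 78.0 ± 1.79 RPKM in RKI_homozygous, against 79.1 ± 5.55 RPKM in RKI_WT (SD, n = 3 each). The biological coefficient of variation, edgeR's estimate of spread between embryos of a group beyond counting noise, was 5.71% for Pou3f2, 7.19% for Pou3f3, 7.38% for Pou3f1 and 7.46% for Pou3f4, against 6.94% in common over all genes. Among tested genes of similar mean level, 55.1% had a lower coefficient than Pou3f2, 81.6% than Pou3f4, 83.6% than Pou3f1 and 87.0% than Pou3f3, so the last 3 varied more than most genes of their level.

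Some POU genes of other classes reached similar levels. Pou6f1 averaged 15.9 ± 0.632 RPKM and Pou2f2 13.6 ± 1.03 RPKM, between Pou3f2 and Pou3f4, and Pou4f1 averaged 1.09 ± 0.36 RPKM (SD, n = 12). A further 7 averaged at or below 0.161 RPKM, and Pou5f1, the pluripotency factor Oct4, had a count of 0 in 11 of 12 libraries. Pou2f1 was the odd case among these, with a gene count of 10 to 30 per library but summed transcript estimates of 910 to 1409, so its RPKM of 0.111 is uncertain.

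**Figure D2:**
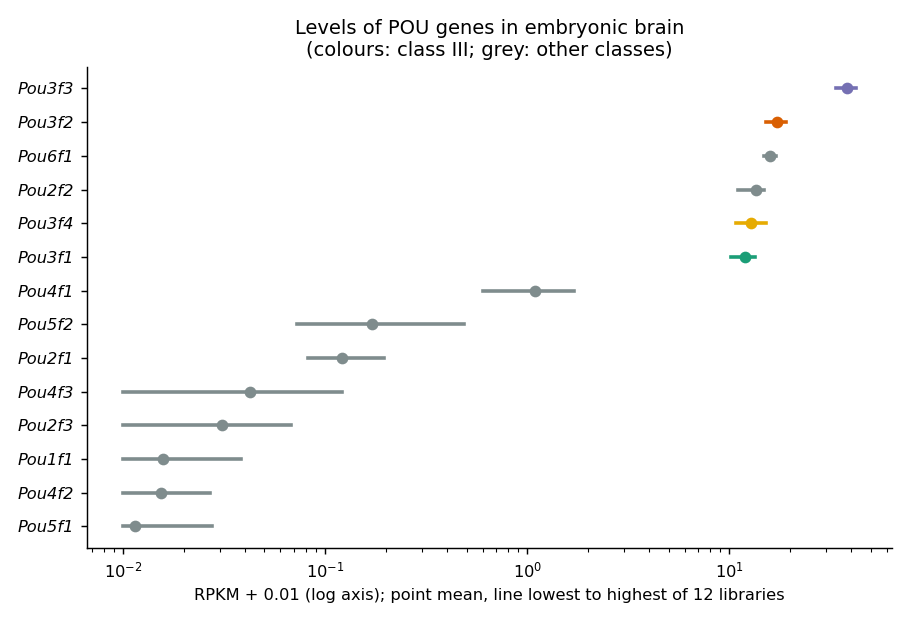
RPKM (plus 0.01, log axis) of the class III genes and of POU genes of other classes over 12 libraries, with the mean as a point and the lowest to highest library as a line. The 4 class III genes (coloured) lie at 10.2 RPKM or above in each library, with Pou3f3 highest.

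Brain markers were present throughout, with 12 of 12 above 1 CPM (counts scaled to the library total, with TMM factors) in every library and a summed level of 9843 to 10721 CPM. Of 9 Hox genes that mark the hindbrain and spinal cord, where class III factors are also made, 5 were at 0 in all libraries. Their summed level was at most 0.101 CPM. The levels given here therefore come from brain tissue in which RNA of Hox-expressing regions was near 0. In bulk tissue, fewer cells of a type and less RNA per cell cannot be told apart.

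Deletion of LC1 was not accompanied by a change in any of the 4 genes that passed the test, although the fitted value was above 0 for each. LC1 lies upstream of Pou3f2. This gene had 101.6, 92.8 and 106.0 CPM in LC1_KO embryos 7, 22 and 71. In LC1_WT embryos 6, 26 and 73 it had 86.6, 97.8 and 95.8 CPM. Embryos 7 and 71 lay above every wild type and embryo 22 within their range. Pou3f3 had 280.1, 303.7 and 312.5 CPM in LC1_KO, against 253.6, 303.0 and 278.2 CPM in LC1_WT. Its groups overlapped as well, with the lowest value in wild-type embryo 6. Pou3f4 had 40.1, 44.4 and 40.2 CPM in LC1_KO, against 36.9, 40.8 and 36.6 CPM in LC1_WT, with embryo 22 highest. Pou3f1 had 48.1, 51.4 and 41.7 CPM in LC1_KO, against 48.4, 46.7 and 43.2 CPM in LC1_WT, and here the knockouts held both the highest and the lowest value.

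In edgeR's quasi-likelihood test, 0 of the 4 members were called in LC1_KO against LC1_WT, in a comparison in which 0% of 16002 genes were called. The log2 fold change was 0.13 for Pou3f4 (SE 0.0907, 95% interval -0.06 to 0.32), 0.10 for Pou3f3 (SE 0.0803, -0.07 to 0.27), 0.10 for Pou3f2 (SE 0.065, -0.04 to 0.24) and 0.03 for Pou3f1 (SE 0.0889, -0.15 to 0.22), with adjusted p = 1 for each. On the linear scale the interval for Pou3f2 ran from 0.975-fold to 1.18-fold around 1.07-fold. At an unadjusted p under 0.05 by edgeR, 0 of the 4 members and 334 genes passed, and DESeq2 and limma-voom also called 0 genes. In the authors' deposited table Pou3f3 had a log2 fold change of 0.108 with an unadjusted p of 0.0494 and an adjusted p of 0.937. No member had groups that did not overlap, and 7.16% of all genes tested had such groups in this comparison.

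The LC1 values of Pou3f2 and Pou3f3 leaned on wild-type embryo 6, and that of Pou3f1 had no stable sign. Without embryo 6 the log2 fold change was 0.05 for Pou3f2 and 0.04 for Pou3f3. Pou3f1 was at -0.04 without knockout embryo 22 and at -0.01 without wild-type embryo 73. Embryo 6 also had the highest summed level of the brain markers (10721 CPM) and of 5 marker lists of other cell types. For meninges and mesenchyme (8 of 8 lower in the knockouts, none called) the sums were 943 to 1222 CPM in LC1_KO and 1109 to 1324 CPM in LC1_WT. Markers of microglia and macrophages (7 of 7 lower, none called) summed to 119 to 129 CPM in LC1_KO and 128 to 163 CPM in LC1_WT, and those of choroid plexus (5 of 6 lower, none called) to 647 to 749 CPM in LC1_KO and 702 to 901 CPM in LC1_WT. Erythroid markers (6 of 8 lower, none called) summed to 632 to 847 CPM in LC1_KO and 678 to 994 CPM in LC1_WT, and those of Schwann cells and nerve glial precursors (4 of 4 measured lower, none called) to 471 to 510 CPM in LC1_KO and 489 to 603 CPM in LC1_WT. In each of these lists no marker was at 0 in all libraries, and their part in the values of the POU genes was not tested.

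**Figure D3:**
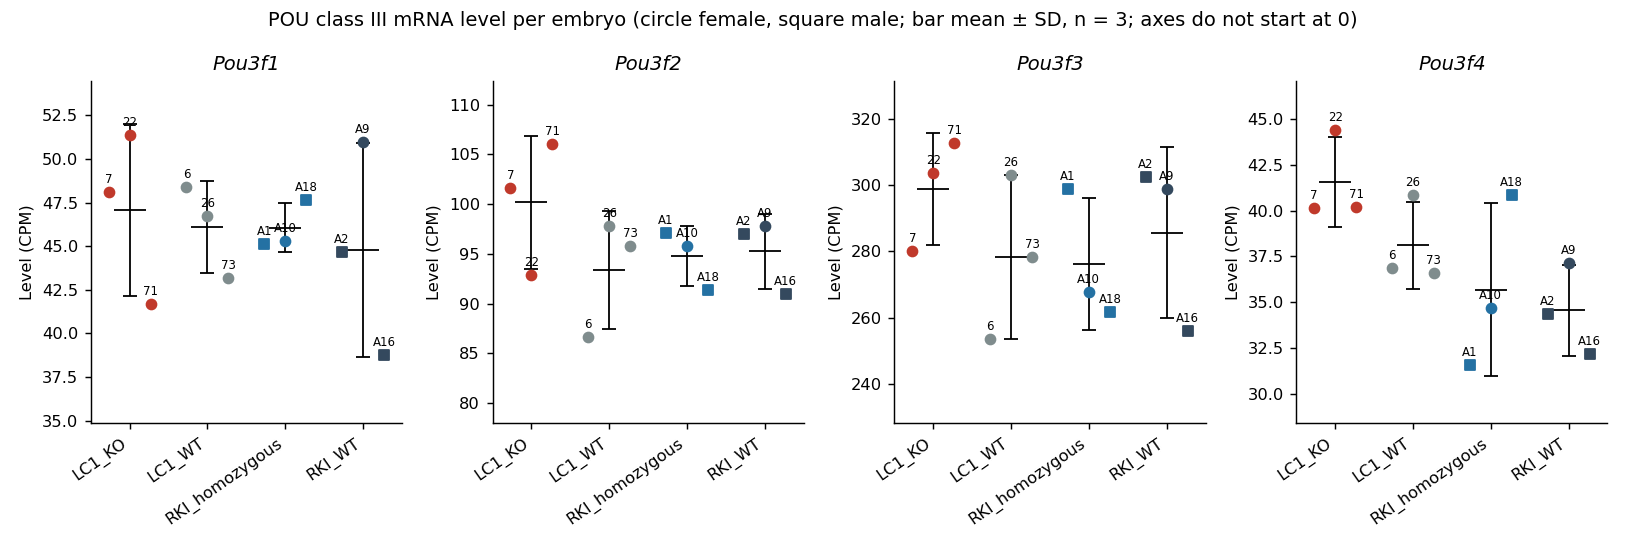
Level (CPM, TMM-scaled) of each member in each embryo, by group, with mean ± SD (n = 3 per group); circles are females, squares males, and the axes do not start at 0. In each panel the mutant group overlaps its wild types, and wild-type embryo 6 is lowest for Pou3f2 (86.6 CPM) and Pou3f3 (253.6 CPM).

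None of the 4 genes passed the test in the RKI embryos. Pou3f2 had 97.1, 95.8 and 91.4 CPM in RKI_homozygous embryos A1, A10 and A18, against 97.0, 97.8 and 90.9 CPM in RKI_WT embryos A2, A9 and A16. All homozygous values fell within the wild-type range. Pou3f3 had 298.9, 267.7 and 261.7 CPM in RKI_homozygous, against 302.3, 298.6 and 256.1 CPM in RKI_WT, and again lay within it. Pou3f1 had 45.1, 45.3 and 47.7 CPM in RKI_homozygous, against 44.6, 51.0 and 38.7 CPM in RKI_WT, where the wild types were the more spread. Pou3f4 had 31.5, 34.7 and 40.8 CPM in RKI_homozygous, against 34.3, 37.2 and 32.2 CPM in RKI_WT, with 1 homozygote above and 1 below all wild types.

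Again 0 of 4 members were called in RKI_homozygous against RKI_WT, where 0% of 16002 genes were called by edgeR, DESeq2 and limma-voom alike and 307 genes and none of the members had an unadjusted p under 0.05 by edgeR. Log2 fold changes were 0.05 for Pou3f1 (SE 0.0878, 95% interval -0.14 to 0.23), -0.0074 for Pou3f2 (SE 0.0644, -0.14 to 0.13), -0.05 for Pou3f3 (SE 0.0801, -0.22 to 0.12) and 0.05 for Pou3f4 (SE 0.0904, -0.14 to 0.24), with adjusted p = 0.999973 for each. For Pou3f2 this interval is 0.906-fold to 1.09-fold. Groups that do not overlap occurred in 5.67% of all genes tested and in none of the members. None of these signs was stable. Pou3f1 was at -0.0074 without A18 and -0.04 without A16, Pou3f4 was at -0.09 without A18, and Pou3f3 lay between 0.0055 and 0.0067 without A10, A2 or A9. Pou3f2 lay between 0.0041 and 0.017 without A10, A18, A2 or A9. Choroid plexus markers (6 of 6 lower, none called) summed to 732 to 758 CPM in RKI_homozygous and 783 to 883 CPM in RKI_WT, and erythroid markers (8 of 8 higher, none called) to 617 to 940 CPM in RKI_homozygous and 597 to 753 CPM in RKI_WT; their part was not tested.

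The effects of the deletion and of the knock-in did not differ beyond the spread between embryos for any member. The LC1 effect minus the RKI effect was 0.15 for Pou3f3 (SE 0.113, 95% interval -0.09 to 0.39), 0.11 for Pou3f2 (SE 0.0915, -0.09 to 0.30), 0.08 for Pou3f4 (SE 0.128, -0.19 to 0.35) and -0.01 for Pou3f1 (SE 0.125, -0.28 to 0.25) on the log2 scale, with adjusted p = 0.999784 by edgeR, and 0% of genes were called. The value of Pou3f1 was above 0 without LC1_KO embryo 71, LC1_WT embryo 6, A18 or A16, at most at 0.07. The mean of the effects was 0.09 for Pou3f4 (-0.05 to 0.22), 0.05 for Pou3f2 (-0.05 to 0.14), 0.04 for Pou3f1 (-0.09 to 0.17) and 0.03 for Pou3f3 (-0.09 to 0.15), and 0% of genes were called here too. For Pou3f3 this mean fell below 0, to -0.0065 without LC1_WT embryo 6, -0.011 without A1 and -0.013 without A16, and for Pou3f1 it was -0.0025 without A16.

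**Figure D4:**
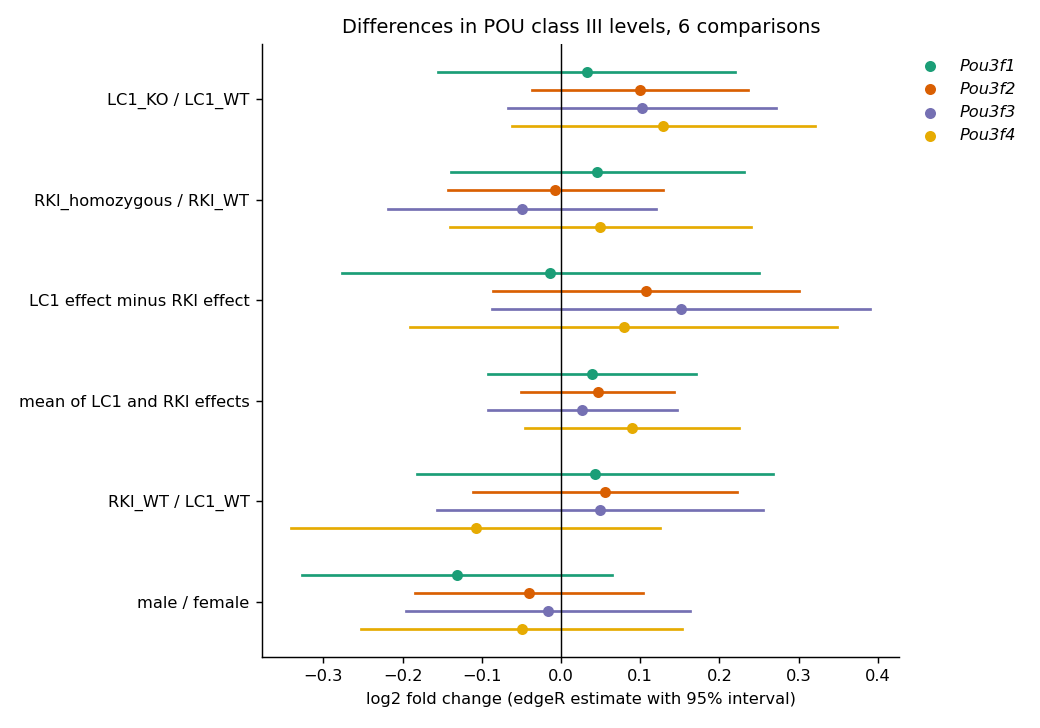
Log2 fold change of each member in 6 comparisons, as edgeR's estimate (point) with a 95% interval computed from its test statistic (line). Every interval crosses 0, and the widest reaches from -0.34 to 0.13 (Pou3f4 in RKI_WT against LC1_WT) among the direct comparisons of groups.

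At the transcript level 0 of 4 member transcripts were called in either experiment, where 0% of 47772 transcripts were called in LC1 and 0% in RKI. From the rounded estimated counts the log2 fold change of Pou3f2 was 0.13 in LC1_KO against LC1_WT (SE 0.0991) and -0.04 in RKI_homozygous against RKI_WT (SE 0.0987), and that of Pou3f3 was 0.09 (SE 0.0753) and -0.07 (SE 0.0752), with adjusted p = 1 in edgeR. Pou3f4 was at 0.08 in LC1 (SE 0.107) and 0.0070 in RKI (SE 0.107), and Pou3f1 at -0.0062 (SE 0.111) and 0.07 (SE 0.11). With the transcript estimates summed per gene the LC1 value of Pou3f1 was 0.0013, so its sign was not settled by these estimates. At an unadjusted p under 0.05 by edgeR, 1418 transcripts passed in LC1 and 1172 in RKI, and none of the members.

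The balance between paralogs did not differ between mutants and wild types beyond the spread between embryos. Of 12 log2 count ratios tested (6 pairs of members in each experiment), the largest difference was in Pou3f1 to Pou3f4, at 0.17 ± 0.108 in LC1_KO and 0.28 ± 0.103 in LC1_WT (SD, n = 3 each), which is a difference of -0.10 (exact two-sided permutation p = 0.5, adjusted p = 0.9). The ratio of Pou3f2 to Pou3f3 was -1.58 ± 0.125 in LC1_KO and -1.57 ± 0.0509 in LC1_WT, and -1.54 ± 0.0722 in RKI_homozygous and -1.58 ± 0.0767 in RKI_WT (SD, n = 3 each; exact permutation p = 0.9 and 0.7). Pou3f3 to Pou3f4 was 2.96 ± 0.282 in RKI_homozygous and 3.05 ± 0.0801 in RKI_WT, the widest spread, with an exact permutation p of 0.7. All 12 pairs of groups overlapped, each adjusted p was 0.9, and 3 embryos against 3 allow no exact p below 0.1.

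Between the wild types of the lines, 0 of 4 members were called, where 0.0125% of genes tested (2 genes) were called in RKI_WT against LC1_WT. Pou3f4 averaged 34.5 ± 2.50 CPM in RKI_WT and 38.1 ± 2.38 CPM in LC1_WT (SD, n = 3 each). With the sex term its log2 fold change was -0.11 (SE 0.111, 95% interval -0.34 to 0.13, adjusted p = 0.999831 by edgeR). The other members lay at 0.06 (Pou3f2), 0.05 (Pou3f3) and 0.04 (Pou3f1). Pou3f1 was at -0.04 without the sex term, -0.0029 without LC1_WT embryo 73 and -0.18 without A9, and Pou3f3 at -0.0078 without LC1_WT embryo 6 and -0.06 without A9. All LC1 wild types are female and 2 of the 3 RKI wild types male, so this comparison leans on the sex term, which the RKI libraries alone determine.

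Sex was read within the RKI embryos, 4 males against 2 females, and 0 of 4 members were called where 0.05% of genes tested (8 genes) were. Pou3f4, on the X chromosome, had 31.5, 40.8, 34.3 and 32.2 CPM in the males A1, A18, A2 and A16, against 34.7 and 37.2 CPM in the females A10 and A9, with overlapping groups. Its log2 fold change of males over females was -0.05 (SE 0.096, 95% interval -0.25 to 0.15, adjusted p = 0.959 by edgeR). Pou3f1 had the largest value, -0.13 (SE 0.0929, -0.33 to 0.06, adjusted p = 0.892 by edgeR), and Pou3f2 and Pou3f3 were at -0.04 and -0.02. The sign turned without single embryos: Pou3f1 was at 0.03 and Pou3f4 at 0.07 without A9, Pou3f4 at 0.0065 without A1, and Pou3f3 at 0.07, 0.05 and 0.01 without A9, A16 and A18.

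Over the 12 embryos Pou3f2 and Pou3f3 varied together, and no other pair of members did so past the threshold. Their log2 CPM values had a Pearson r of 0.72 (permutation p = 0.00682, adjusted over 6 pairs 0.0409) and a Spearman rho of 0.68 (permutation p = 0.0186, adjusted 0.112), so the rank measure missed the threshold after adjustment. Without the 2 embryos farthest from the median of Pou3f2, LC1_KO 71 and LC1_WT 6, r was 0.50. Within the LC1 embryos r was 0.69 (exact permutation p = 0.121, n = 6) and within the RKI embryos 0.90 (exact permutation p = 0.00833, n = 6), and over deviations from the group means it was 0.66. Pou3f1 and Pou3f4 had r = 0.56 and rho = 0.55 (permutation p = 0.0604 and 0.0661, adjusted 0.181 and 0.198), and r = 0.17 without LC1_KO 22 and RKI_WT A16. Pou3f1 and Pou3f2 had r = -0.14 and rho = -0.06 (permutation p = 0.667 and 0.869, adjusted 0.667 and 0.991), with r = -0.58 in LC1 and 0.54 in RKI. The other 3 pairs had r between 0.15 and 0.28, with adjusted permutation p = 0.667. All levels of an embryo share its library, its scaling and its dissection.

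**Figure D5:**
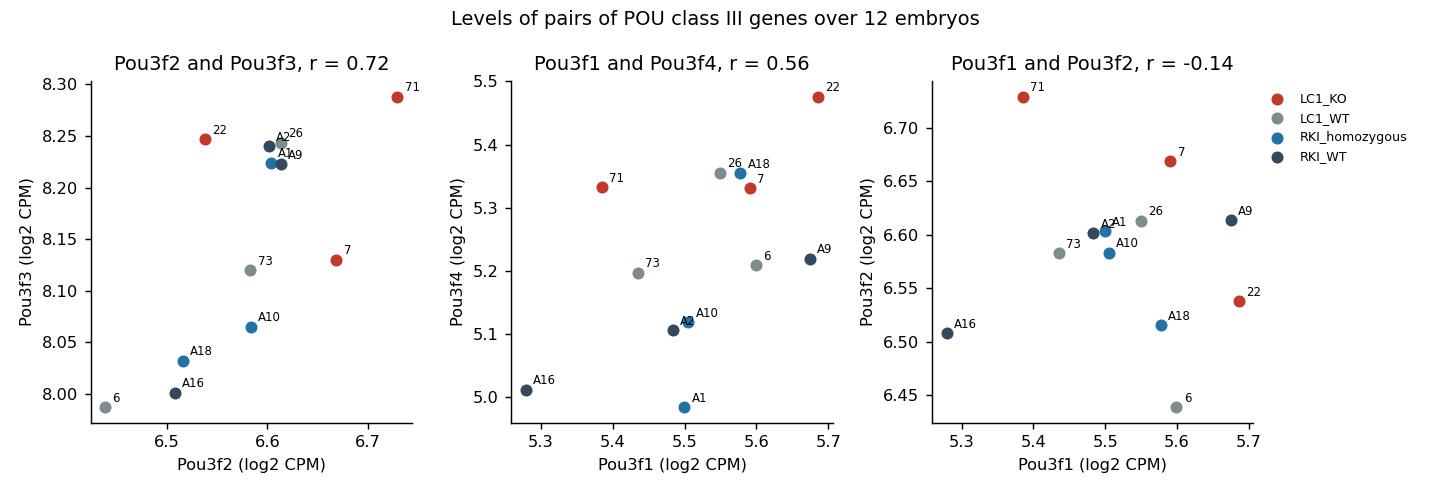
Log2 CPM of 3 pairs of members, 1 point per embryo, coloured by group. Pou3f2 and Pou3f3 run from embryo 6, low in both, to embryo 71, high in both (r = 0.72), while Pou3f1 and Pou3f2 show no such run (r = -0.14).

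Genes whose level was most like that of a member were sought among 10315 genes with a mean of at least 10 CPM, by Pearson r of log2 CPM over the 12 libraries and as a description only. Pou3f1 was the member with the most company, with 207 genes above r = 0.8, led by Gal3st3 (a galactose sulfotransferase, r = 0.94), Trim8 (a ubiquitin ligase of the TRIM family, r = 0.94) and Limk1 (LIM kinase 1, which phosphorylates cofilin, r = 0.94). Pou3f2 had 27 such genes, led by Adgrl2 (the adhesion receptor latrophilin 2, r = 0.87), Exd2 (a nuclease, r = 0.86) and Gak (the cyclin G-associated kinase, r = 0.86), of which Gak had r = 0.95 in LC1 and 0.23 in RKI. Pou3f3 had 20, led by Gpaa1 (a subunit of the GPI transamidase, r = 0.88), Adcyap1r1 (the PACAP receptor PAC1, r = 0.88) and Galnt16 (a mucin-type glycosyltransferase, r = 0.87). Pou3f4 had 4, among them Fam222b (r = 0.88) and Lancl2 (r = 0.84). These r values are the highest of 10315 and are high by that choice, and all genes of a library share its depth and dissection.

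Pantr1 and Pantr2, non-coding RNAs transcribed next to Pou3f3, did not change past the threshold. Pantr1 averaged 37.7 ± 2.12 CPM in LC1_KO and 40.5 ± 6.22 CPM in LC1_WT, and 41.2 ± 3.72 CPM in RKI_homozygous and 40.2 ± 1.19 CPM in RKI_WT (SD, n = 3 each). Pantr2 had few counts, with 15 to 37 counts in LC1_KO and 14 to 22 in LC1_WT, and 22 to 30 in RKI_homozygous and 28 to 54 in RKI_WT. Its log2 fold change was 0.37 in LC1 (SE 0.329) and -0.46 in RKI (SE 0.293).

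Genes that work with or downstream of the class III factors were followed as lists, and no member of any list passed edgeR's test in either experiment. Over all 16002 genes the median log2 fold change was -0.0030 in LC1 and 0.0012 in RKI. Of 10 partner factors, 8 were higher and 2 lower in the mutants of each experiment, with a median of 0.03 in LC1 and 0.06 in RKI. Sox1 and Sox3, SOXB1 factors of neural progenitors, were at 0.19 and 0.11 in LC1 and 0.09 and -0.13 in RKI. Of 9 measured target genes, of 11 listed, 5 were higher and 4 lower in LC1 (median 0.03) and 6 and 3 in RKI (median 0.04). Fabp7, the fatty acid binding protein of radial glia, was at -0.19 in LC1 (SE 0.0695) and 0.05 in RKI. Nes, the progenitor filament nestin, was at -0.14 and -0.13, and the Notch ligand Dll1 at 0.14 and -0.06.

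None of the listed genes of upper-layer and deep-layer cortical neurons was called in either experiment. Of 10 upper-layer genes, 8 were higher and 2 lower in LC1 (median 0.08), and 2 higher and 8 lower in RKI (median -0.03). Lhx2, a LIM homeodomain factor, was at 0.10 in LC1 and -0.19 in RKI (SE 0.0858), the semaphorin co-receptor Plxna4 at 0.14 and -0.02, and the adhesion molecule Nectin3 at -0.02 and -0.13. Of 8 deep-layer genes, 6 were higher and 2 lower in LC1 (median 0.07), and 3 higher and 5 lower in RKI (median -0.04). Fezf2 and Tbr1, which specify subcortical and corticothalamic neurons, were at 0.10 and 0.15 in LC1 and -0.16 and -0.11 in RKI, and Sox5 at 0.09 and -0.06. The difference between the experiments was tested gene by gene, with no call. Between the wild types, RKI_WT against LC1_WT, 9 of 10 upper-layer genes (median 0.11) and 8 of 8 deep-layer genes (median 0.06) had values above 0, none called, with Fezf2 at 0.27 (SE 0.0712). Of 14 subpallial genes, which mark the territory of Pou3f4 in the striatum and its surroundings, 10 were higher and 4 lower in LC1 (median 0.10), and 11 and 3 in RKI (median 0.10). Gad2, an enzyme of GABA synthesis, was at 0.11 in LC1 and 0.17 in RKI, and Meis2 at 0.11 and -0.05. Among 5 measured POU genes of other classes, 3 were higher and 2 lower in each experiment, with Pou2f2 at -0.0073 in LC1 and 0.17 in RKI, Pou4f1 at 0.37 and -0.51, and Pou6f1 at 0.06 and 0.04.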

How the data were processed

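RNA from the brains of 12 mouse embryos was sequenced, and the members and gene lists were chosen with earlier results of these data known. The authors deposited whole-number counts per gene, estimated counts per transcript, RPKM values of both, and tables of their comparisons with log2 fold changes and p-values. Tools named in the submitters' processing notes, with no role stated, are featureCounts 1.4.5 (with Subread), STAR 2.0.4b, limma and edgeR. The sources used here do not give the genome build, strand setting or read length. In the deposited RKI comparisons a positive value is higher in wild type, so their signs were turned.

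Of 41264 rows, 574 repeat an identifier and were dropped. Gene counts were tested with edgeR 4.0.16 in R 4.3.3 (quasi-likelihood, robust, TMM scaling, filterByExpr by group, 16002 genes), with 4 group means and a sex term over all 12 libraries, which left 7 residual degrees of freedom. P-values were adjusted over all genes by Benjamini-Hochberg at 0.05. Transcript estimates were rounded to whole numbers and tested likewise. The procedure was run on simulated counts with changes larger than those estimated for the members, so recovery of changes of their size was not checked. Paralog ratios were compared by exact two-sided permutation tests, and relations among members by 100000 permutations. Alternatives were DESeq2 1.42.0, limma-voom (limma 3.58.1), upper-quartile scaling, no filter, no sex term, 6 libraries alone, a block of neighbouring embryo numbers, transcript estimates, RPKM with a pseudocount of 0.1 and leaving out each embryo. Proteins were aligned with MAFFT 7.526. Named genes are the members, for each list the 3 with the smallest p in either experiment, and for likeness the 3 with the highest r; some of these are not reported here. Each library is 1 embryo, and intervals cover the spread between embryos. The protocol states that embryos were litter-matched, but no label names litters, so no litter term was fitted.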

Additional observations from a re-analysis of the deposited data

How the results depend on the processing

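No member passed the threshold under any alternative. Before adjustment, some single settings (edgeR, DESeq2 or limma-voom) gave a p under 0.05. The lowest such p was 0.0433 for Pou3f2 in LC1 (20 settings) and 0.0349 for Pou3f3 in the difference of effects (18 settings). For Pou3f1 in males over females it was 0.0241 (17 settings). The lowest adjusted p in these results was 0.934, 0.911 and 0.361. Each is the lowest of its settings and is low by that choice. With each embryo left out in turn, log2 fold changes that changed sign ranged as follows. For Pou3f1 they ran from -0.038 to 0.11 in LC1, from -0.039 to 0.15 in RKI, from -0.12 to 0.073 for the difference of effects, from -0.0025 to 0.094 for their mean, from -0.18 to 0.16 in RKI_WT against LC1_WT and from -0.30 to 0.035 for males over females. For Pou3f2 they ran from -0.042 to 0.017 in RKI. For Pou3f3 they ran from -0.13 to 0.0067 in RKI, from -0.013 to 0.062 for the mean, from -0.061 to 0.12 between wild types and from -0.10 to 0.066 for sex. For Pou3f4 they ran from -0.087 to 0.13 in RKI and from -0.17 to 0.065 for sex. Without the sex term Pou3f1 was at -0.041 between wild types. Paralog log2 ratio differences that changed sign on leaving out an embryo ran, in LC1, from -0.19 to 0.052 (Pou3f1 to Pou3f2), -0.14 to 0.039 (Pou3f1 to Pou3f3), -0.062 to 0.062 (Pou3f2 to Pou3f3), -0.092 to 0.076 (Pou3f2 to Pou3f4) and -0.079 to 0.014 (Pou3f3 to Pou3f4). In RKI they ran from -0.011 to 0.13 (Pou3f1 to Pou3f2), -0.063 to 0.084 (Pou3f1 to Pou3f4), -0.15 to 0.080 (Pou3f2 to Pou3f4) and -0.23 to 0.051 (Pou3f3 to Pou3f4). From transcript estimates the LC1 differences of Pou3f2 to Pou3f3, Pou3f2 to Pou3f4 and Pou3f3 to Pou3f4 were 0.039, 0.046 and 0.0068. Without the low-count filter edgeR called 4 genes in LC1, 26 in RKI, 17 for the difference, 13 for the mean, 28 between wild types and 45 for sex. From transcript estimates summed per gene it called 4 genes in RKI, 3 for the difference, 3 for the mean and 1 between wild types. A block of neighbouring embryo numbers, which the labels do not state to be pairs, called 3 genes in RKI and no member, with log2 fold changes of 0.028, 0.10, 0.10 and 0.13 for Pou3f1 to Pou3f4 in LC1 and 0.048, -0.0069, -0.047 and 0.042 in RKI. With each embryo left out, 0 to 2 genes were called in RKI, 0 to 1 for the difference, 0 to 1 for the mean and 1 to 4 between wild types. The causes were not tested. The members had 705 to 7814 counts per library, and with 3 embryos a group the 95% interval of Pou3f4 in LC1 runs from 0.958-fold to 1.25-fold.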

Other observations

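The gene and transcript tables differed widely for another POU gene, Pou2f1, which encodes the broadly expressed octamer-binding factor Oct1. Its gene count was 10 to 30 per library, while the summed estimates of its 17 transcripts were 910 to 1409. Pou6f1 gave 2043 to 3056 gene counts and 2003 to 2927 summed estimates from 9 transcripts. What set the difference was not tested.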
